A study of Mus musculus with 21 samples.

Results

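The transcripts of 10 genes of the BCL2 family were followed through oncogene activation in mouse mammary organoids. They were listed by name: Bcl2, Bcl2l1, Bcl2l2, Mcl1, Bcl2l11, Bid, Bad, Bmf, Bik and Bak1. Each symbol matched 1 gene ID of the GENCODE vM21 annotation, among 55536 gene IDs in the count table, and all 10 passed the filter on low counts. The organoids were grown from primary mouse mammary epithelial cells and were wild type (WT) or homozygous for the ATLD1 allele of Mre11 (labelled ATLD), a gene for a nuclease that acts at DNA double-strand breaks. Polyadenylated RNA was sequenced at day 0, day 14 and day 28 after activation of neuT, the oncogenic rat Erbb2 (a growth factor receptor gene), with 3 libraries in each of the 6 groups of genotype and day. Replicate 1 of each WT day was sequenced a second time in the run of the ATLD samples, which gave 3 further libraries. All 6 groups are labelled as days after neuT activation, with day 0 as the starting point. How neuT is switched on, the strain and the animals' age are not given in the labels. There was no culture without neuT at day 14 or day 28, so neuT and time in culture cannot be told apart. Whether replicates are separate animals is not labelled, and p-values therefore reflect the spread between these libraries, which may be technical.

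Proteins of the BCL2 family decide whether the outer mitochondrial membrane stays closed or is opened in apoptosis. Guardians such as BCL2, BCL-XL (from Bcl2l1), BCL-W (from Bcl2l2) and MCL1 hold the effectors BAK and BAX in check, and BH3-only proteins (BIM from Bcl2l11, BID, BAD, BMF, BIK) bind the guardians or activate the effectors. In the mouse mammary gland MCL1 keeps luminal cells alive, BIM takes part in clearing the lumen of growing ducts, and loss of milk-producing cells after weaning runs through this pathway. Several of these proteins are also controlled by phosphorylation, cleavage and degradation, none of which RNA counts show. In bulk RNA, fewer cells of a type and less RNA per cell cannot be told apart.

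Levels were TMM-scaled and are expressed per 1e+06 counts (CPM), given for replicates 1, 2 and 3 of a group in that order, and log2 fold changes are given ± SE. A gene was called changed where edgeR's quasi-likelihood test gave a Benjamini-Hochberg adjusted p under 0.05 over all genes tested. Depth was 30905703 to 50879106 counts in original WT libraries, 46532851 to 48887808 in resequenced runs and 46331204 to 51757203 in ATLD. Mre11a, the targeted gene, lay between 43.3 and 58.6 CPM in the original WT libraries and between 14.1 and 17.1 in the ATLD libraries. Replicates 1 and 3 of WT day 14 and replicate 2 of WT day 28 stood apart by low levels of GC-rich genes: the difference between genes of 57.5% and of 40.9% GC, relative to the mean library, was -1.03, -1.01 and -0.78 on the log2 scale, against -0.45 to 0.59 in the other 18 libraries. Some of the results that rest on these 3 libraries, mainly changes over time in WT, are given with and without them below. Transcripts of the 4 members with the highest GC content, Bik with 59.4%, Bad and Bak1 with 57.1% each and Bcl2l1 with 55.9%, are the ones most open to this trend. Summed luminal progenitor markers (7 genes: Kit, Elf5, Aldh1a3, Cd14, Ltf, Lcn2 and Wfdc18) lay at 6270 to 6620 CPM in WT day 0, 362 to 382 in WT day 14 and 407 to 507 in WT day 28. At the 3 ATLD days they lay at 17700 to 21800, 17200 to 20000 and 30800 to 34000 CPM. Summed basal markers lay at 2080 to 2680 CPM in WT day 0, 3930 to 9540 in WT day 14 and 4540 to 8550 in WT day 28, and at 3570 to 3920, 2390 to 2440 and 1980 to 2190 at the 3 ATLD days. Krt5 and Krt14 made up most of this sum, and both were lowest for their day in the 3 libraries low in GC-rich genes. Of the 7 basal genes, 3 were called higher and 4 lower in WT by day 14 (median -1.218 on the log2 scale). Acta2 went from 272, 296.9 and 277.9 CPM in WT day 0 to 8.358, 13.03 and 10.5 in WT day 14. Summed hormone-sensing luminal markers lay at 416 to 725 CPM in the original WT libraries and 93.7 to 182 in ATLD. Of these 6 genes, 1 was called higher and 3 lower in WT by day 14, where 30.3% of all genes were called (15.2% higher, 15.1% lower). Ly6a went from 68.9, 62.3 and 67.7 CPM at WT day 0 to 434, 323 and 466 at WT day 14, and Prlr from 208, 203 and 198 to 37.4, 25.7 and 36.5. The part of these cell types in the results was not tested. Of the other lists, fibroblast markers reached 49.8 CPM (highest in WT day 0), lung epithelium 17.2, macrophages 11.6 and lymphocytes, adipocytes and endothelial cells at most 2.74. Erbb2, the mouse gene of the receptor, was not called over time in either genotype (WT 0.06 ± 0.26 by day 14 and 0.32 ± 0.26 by day 28 on the log2 scale). With a term for sequencing run it was called lower in ATLD on day 14 (-0.66 ± 0.27) and day 28 (-0.74 ± 0.28). The genotypes overlapped on both days. Original WT libraries held 68.95 to 138.5 CPM of Erbb2 on day 14 and 75.31 to 132.7 on day 28. ATLD libraries held 76.07 to 87.56 and 72.15 to 107.2 CPM. The WT median of day 14, 72.67 CPM, lay below every ATLD library of that day. Whether reads of rat neuT count to Erbb2 is not stated in the labels.

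**Figure D1:**
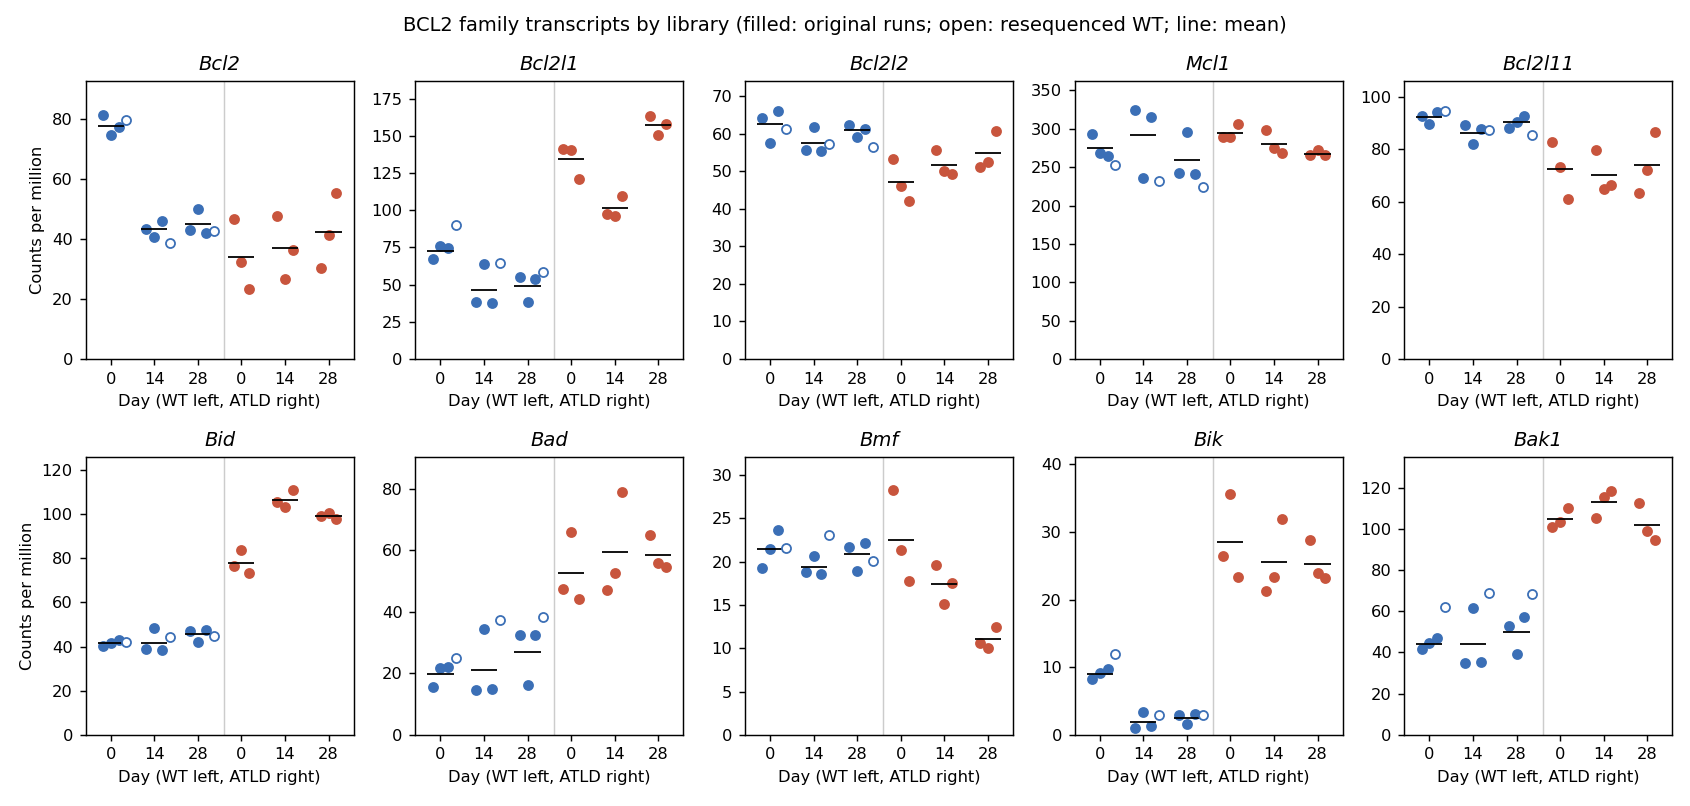
CPM (y axis) of each of the 10 genes in every library, by day after neuT activation (x axis), WT in blue and ATLD in red. Filled points are original libraries, open points the resequenced WT runs and lines the means of 3 originals; Bik falls from 8.28 to 9.74 CPM at WT day 0 to at most 3.44 at WT day 14, while no ATLD library is below 21.3.

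Mcl1 was the most abundant transcript of the 10 in every group. Scaled by gene length, which is needed to set genes side by side, its mean level at WT day 0 was 80.5 ± 4.61 CPM per kb (SD, n = 3), ahead of Bak1 with 18.4 ± 1.11, Bcl2l1 with 15.8 ± 0.99 and Bcl2l2 with 14.0 ± 0.99. Below these came Bid with 11.7 ± 0.37 and Bcl2l11 with 11.5 ± 0.31, which did not differ beyond their spread, then Bcl2 with 8.50 ± 0.37, Bad with 7.75 ± 1.49, Bik with 5.70 ± 0.46 and Bmf with 4.08 ± 0.41. Bcl2l1 and Bcl2l2, and Bcl2 and Bad, were also within each other's spread. At ATLD day 0 the order of the lower ranks was another one: Mcl1 with 86.3 ± 2.74 CPM per kb and Bak1 with 43.5 ± 1.97 still led, and Bcl2l1 followed with 29.3 ± 2.53. Bid with 22.0 ± 1.51, Bad with 20.5 ± 4.54 and Bik with 17.9 ± 4.01 lay within their spread of each other and above Bcl2l2 with 10.5 ± 1.27 and Bcl2l11 with 9.003 ± 1.37. Bcl2, with 3.73 ± 1.29 CPM per kb, was the lowest of the 10 together with Bmf, with 4.28 ± 1.02.

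Among the 4 guardians, Mcl1 held most of the length-scaled level, from 60.5% ± 1.46 in ATLD day 28 to 75.1% ± 5.98 in WT day 14. Bcl2l1, the gene of BCL-XL, held 13.3% ± 1.29 at WT day 0 and 9.23% ± 3.93 at WT day 14, but 22.5% ± 1.68, 18.5% ± 1.78 and 26.5% ± 1.16 at the 3 ATLD days. Bcl2 itself was a minor guardian transcript in every group, with 7.15% ± 0.10 at WT day 0 and 2.86% ± 0.93 at ATLD day 0. Among the 5 BH3-only genes, Bik held 14.0% ± 0.22 at WT day 0, 3.21% ± 1.58 at WT day 14 and 19.6% to 24.2% as ATLD group means. Bmf held 10.02% ± 0.38 at WT day 0 and 2.70% ± 0.35 at ATLD day 28. These shares are descriptions of mean levels, with no test.

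**Figure D2:**
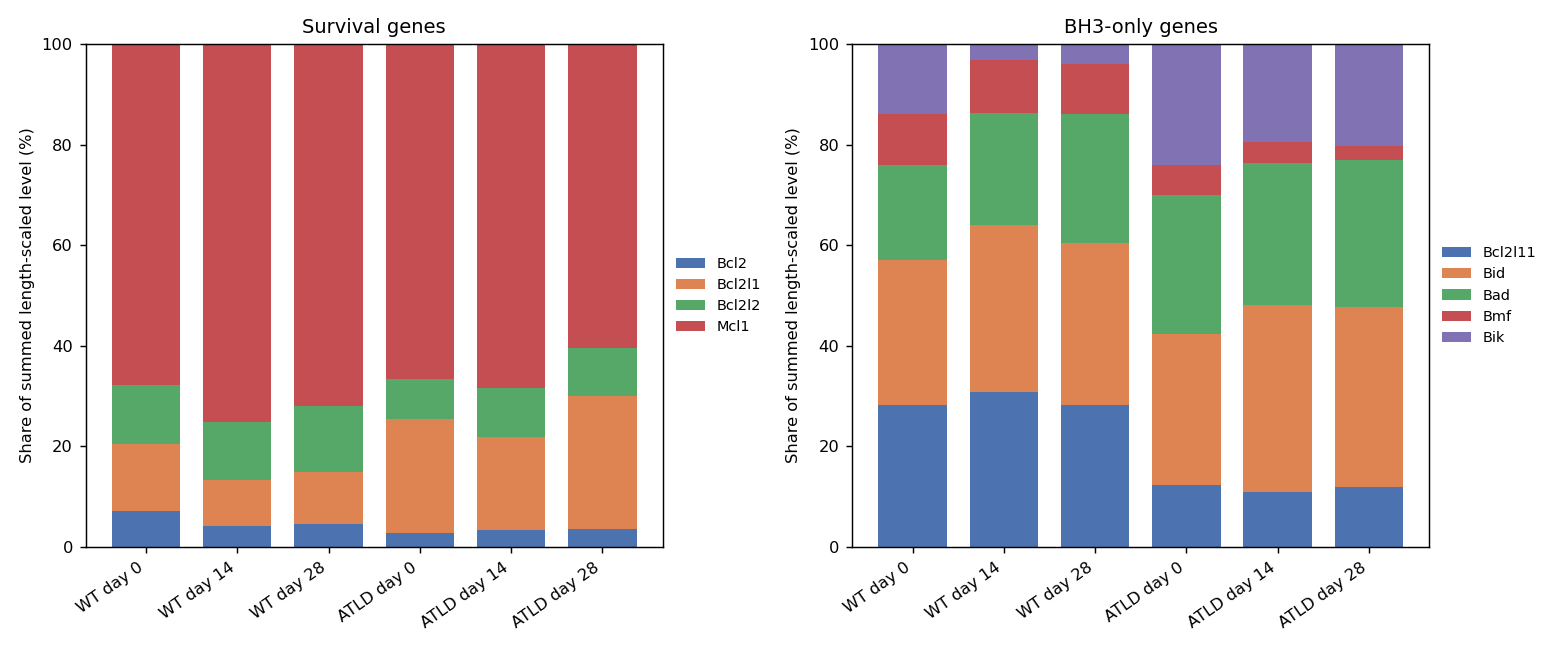
Mean share (y axis, % of the summed CPM per kb) of each gene among the 4 survival genes (left) and the 5 BH3-only genes (right) in the 6 groups, with n = 3 libraries a group. Mcl1 fills 60.5% to 75.1% of the left bars, and Bik shrinks from 14.0% to 3.21% between WT day 0 and WT day 14.

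In WT organoids 3 of the 10 members fell by day 14 and none was called higher. These were the guardian genes Bcl2 and Bcl2l1 and the BH3-only gene Bik, and 30.3% of all 18684 genes tested were called in that comparison, 15.2% higher and 15.1% lower. By day 28 the WT count was again 3, the same 3 genes, beside 24.7% of all genes (12.3% higher, 12.4% lower). The median log2 change of the 10 members was -0.11 at day 14 and -0.04 at day 28, against 0.01 and 0.02 over all genes tested. Between WT day 14 and day 28 edgeR called 0 of the 10 members, 0 had an unadjusted p under 0.05, DESeq2 also called 0, and 0.905% of all genes were called (0.53% higher, 0.375% lower). That last comparison depended on 1 library: without replicate 2 of WT day 14, 4 members and 19.9% of all genes were called. This fit leaves replicates 1 and 3 at WT day 14, both low in GC-rich genes (GC trend -1.03 and -1.01). The trend was 0.20, -0.78 and 0.26 in the WT day 28 libraries, so GC trend and day are mixed in these calls. In ATLD organoids 1 member, Bid, rose by day 14 (11.7% of all genes called, 5.18% higher and 6.49% lower), and by day 28 Bid was higher and Bmf lower (29.8% of all genes, 14.1% higher and 15.7% lower). From day 14 to day 28 Bcl2l1 rose and Bmf fell in ATLD (17.3% of all genes, 8.25% higher and 9.05% lower). In each of these comparisons the share of members called is close to or below the share of all genes, so the counts show nothing particular to the family. The comparisons of a genotype with day 0 share their day 0 libraries.

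**Figure D3:**
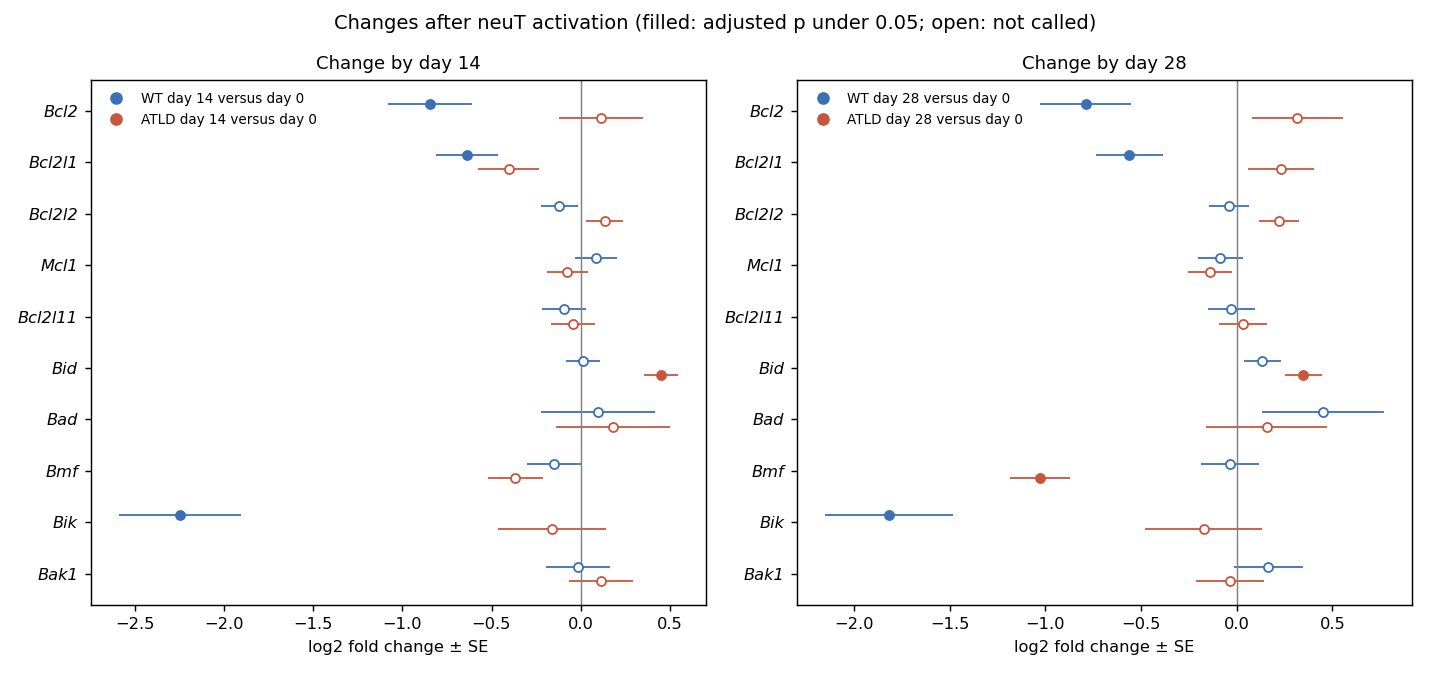
log2 fold change from day 0 ± SE (x axis) of the 10 genes by day 14 (left) and day 28 (right), WT in blue and ATLD in red, with n = 3 libraries a group. Filled points passed an adjusted p under 0.05; Bcl2, Bcl2l1 and Bik are called lower in WT, and Bid (higher) and, by day 28, Bmf (lower) in ATLD.

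ATLD and WT were compared at each day. At day 0 the fit with a batch term called 9 of the 10 members, 6 higher and 3 lower in ATLD, beside 55.6% of all 18844 genes (26.1% higher, 29.5% lower). At day 14 it called 5, all higher (65.1% of all genes, 30.1% higher and 35% lower), and at day 28 it called 4 higher and 1 lower (64.2% of all genes, 29.3% higher and 34.9% lower). The median log2 difference of the members was 0.42, 0.47 and 0.39 at the 3 days, against -0.04, -0.07 and -0.05 over all genes. The counts at day 14 and day 28 are below the share of all genes called and show nothing particular to the family. With the 3 WT libraries low in GC-rich genes left out, the fit called 6 members at day 14, all higher (68.5% of all genes called). At day 28 it then called 6 higher and 1 lower (69.4% of all genes called). These counts too are near or below the share of all genes. Bcl2l1, Bid, Bik and Bak1 were called higher in ATLD at each of the 3 days. The day 0 count rested on replicate 1 of WT day 0, the culture that was sequenced in both runs: without its 2 libraries 2 members, Bcl2 and Bid, were still called. In every comparison of ATLD with WT below, leaving out replicate 1 of a WT day drops both of its runs. Batch and genotype are the same split apart from the 3 resequenced WT runs, so what the batch term removes rests on those 3 cultures. Values within the second run alone set 3 ATLD libraries of a day against 1 WT library, one of these same resequenced runs.

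**Figure D4:**
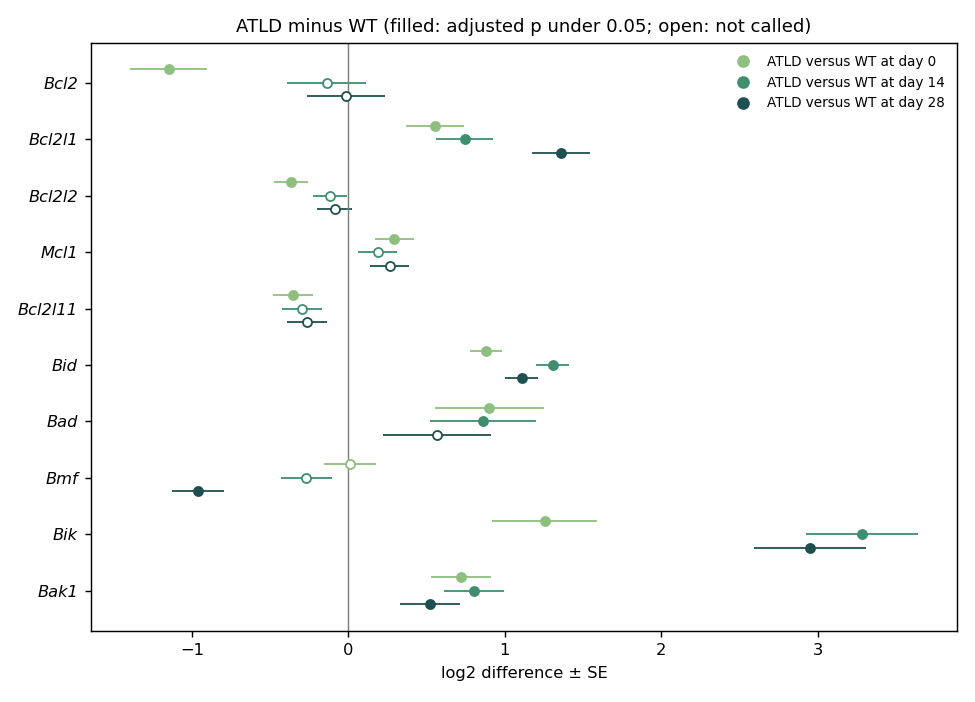
log2 difference ATLD minus WT ± SE (x axis) of the 10 genes at day 0, 14 and 28, from the fit of 21 libraries with a batch term; filled points passed an adjusted p under 0.05. Bik lies farthest to the right at day 14 with 3.28, and Bcl2 is lower in ATLD at day 0 with -1.15 and near 0 at the later days.

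The change from day 0 itself differed between the genotypes for 2 members at day 14, Bik and Bid, beside 21.3% of all genes (10.8% higher, 10.6% lower). At day 28 it differed for 4 members, Bcl2, Bcl2l1, Bik and Bmf, beside 27.5% of all genes (13.5% higher, 14% lower). Bcl2, Bcl2l1 and Bik fell in WT and were not called changed in ATLD over the same 28 days, and Bmf fell in ATLD. These tests use the same libraries as the changes within a genotype.

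Bcl2, on chromosome 1 (chr1:106538178-106714274, minus strand, mm10), encodes the founding guardian of the family. Its level was 81.4, 74.7 and 77.4 CPM at WT day 0, 43.4, 40.7 and 45.9 at day 14, and 43.0, 49.97 and 42.2 at day 28. Each later WT library was below each WT day 0 library, and the resequenced runs gave 79.7, 38.7 and 42.6 for the 3 days. The fall was 0.84 ± 0.24 on the log2 scale by day 14 (edgeR adjusted p = 0.0115), or 1.80-fold lower, and it kept its call in each of the 10 alternatives and 6 omissions of a library. By day 28 the log2 change was -0.79 ± 0.24 (edgeR adjusted p = 0.0202). Leaving out replicate 1 or 3 of WT day 0 or of WT day 28 ended that call, with -0.75 to -0.79 and -0.74 to -0.75 and adjusted p from 0.0512 to 0.0749. In ATLD, Bcl2 was at 46.7, 32.2 and 23.4 CPM at day 0, 47.8, 26.8 and 36.3 at day 14, and 30.5, 41.4 and 55.6 at day 28. The ATLD days overlapped, and the spread within each ATLD day was wider than in WT. At day 0 all ATLD libraries lay below the WT ones, with a log2 difference of -1.15 ± 0.25 (edgeR adjusted p = 0.000755) and -1.18 within the second sequencing run alone, so Bcl2 started 2.22-fold lower. At day 14 and day 28 the genotypes overlapped, with differences of -0.14 ± 0.25 and -0.01 ± 0.25. The change from day 0 to day 28 differed between genotypes by 1.11 ± 0.34 (edgeR adjusted p = 0.0199). The call was lost within the second run alone (1.21, adjusted p = 0.148), without replicate 3 of ATLD day 0 (0.89, adjusted p = 0.0511) and without replicate 3 of ATLD day 28 (0.86, adjusted p = 0.0657).

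Bcl2l1, on chromosome 2 (chr2:152780668-152831728, minus strand, mm10), encodes BCL-XL and, by another splice site, the shorter pro-apoptotic BCL-XS, and counts per gene do not separate the isoforms. Its level was 67.3, 75.8 and 74.4 CPM at WT day 0, 38.5, 63.9 and 37.7 at day 14, and 55.1, 38.3 and 53.9 at day 28. The WT groups did not overlap with day 0, but the lowest values are those of the 3 libraries low in GC-rich genes. The log2 change was -0.64 ± 0.17 by day 14 (edgeR adjusted p = 0.00975) and -0.56 ± 0.17 by day 28 (adjusted p = 0.0239). Without the 3 libraries low in GC-rich genes the day 14 change was -0.22 and not called (adjusted p = 0.0767). That fit left replicate 2 and the resequenced run of replicate 1 for day 14, with no batch term. Without replicate 1 or replicate 3 of WT day 14 the change was -0.51 and -0.50 (adjusted p = 0.0599 and 0.06). The call was also lost with the WT day 0 and day 14 libraries fitted alone (-0.68, adjusted p = 0.0632). The day 28 call was lost without replicate 2 or 3 of WT day 0 (-0.53 and -0.54, adjusted p = 0.0715 and 0.0742), without replicate 2 of WT day 28 (-0.41, adjusted p = 0.117) and with a replicate block (adjusted p = 0.0755). In ATLD it stood at 141, 141 and 121 CPM at day 0, 97.8, 96.4 and 109.85 at day 14, and 164, 151 and 158 at day 28. The 3 ATLD days did not overlap, lowest at day 14 and highest at day 28. The ATLD dip by day 14 was -0.40 ± 0.17 and not called (edgeR adjusted p = 0.166), whereas the later rise from day 14 to day 28 was 0.64 ± 0.17 (adjusted p = 0.0172). That rise lost its call without replicate 1 or 2 of ATLD day 14, without replicate 1 of ATLD day 28 (0.60 to 0.61, adjusted p = 0.0543 to 0.0632) and with a replicate block (adjusted p = 0.0612). Every ATLD library was above every WT library of its day. The fitted difference came to 0.55 ± 0.19 at day 0 (edgeR adjusted p = 0.0167), to 0.74 ± 0.18 at day 14 (adjusted p = 0.00171) and to 1.36 ± 0.19 at day 28 (adjusted p = 5.07e-06), or 2.57-fold. Within the second run alone it was 0.62, 0.72 and 1.47, and without replicate 1 of WT day 0 the day 0 value was 0.48 and not called (adjusted p = 0.168). The change from day 0 to day 28 differed between the genotypes by 0.79 ± 0.25 (edgeR adjusted p = 0.0219). This call was lost with a replicate block (adjusted p = 0.0675) and without replicate 3 of WT day 0, replicate 2 of WT day 28 or replicate 3 of ATLD day 0 (0.64 to 0.77, adjusted p = 0.0524 to 0.0615).

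The promoter windows of Bcl2 and Bcl2l1 are shown because these guardian genes fell together in WT but stood on opposite sides of WT in ATLD at day 0. Each window runs from 250 bases before to 50 bases after the RefSeq transcription start (GRCm38.p6) that is nearest to the annotated gene start, 9 of the 10 members had one, and capitals mark matches of 8 motifs searched on both strands. The Bcl2 window is chr1:106714241-106714540 and the Bcl2l1 window chr2:152831679-152831978, both on the minus strand.
Bcl2 promoter: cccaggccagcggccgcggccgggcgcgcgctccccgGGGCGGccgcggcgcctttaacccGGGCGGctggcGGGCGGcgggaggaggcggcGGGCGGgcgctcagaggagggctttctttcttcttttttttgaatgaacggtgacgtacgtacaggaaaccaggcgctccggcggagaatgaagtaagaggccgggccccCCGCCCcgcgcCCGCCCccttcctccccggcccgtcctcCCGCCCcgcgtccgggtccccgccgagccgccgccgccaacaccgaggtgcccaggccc
Bcl2l1 promoter: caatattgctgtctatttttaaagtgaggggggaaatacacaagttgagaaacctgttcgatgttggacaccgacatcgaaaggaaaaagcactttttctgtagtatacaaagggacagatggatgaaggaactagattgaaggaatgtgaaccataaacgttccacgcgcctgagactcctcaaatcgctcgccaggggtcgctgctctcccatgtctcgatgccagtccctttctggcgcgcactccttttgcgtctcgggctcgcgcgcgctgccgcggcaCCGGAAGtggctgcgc
The Bcl2 window had 76.0% GC and 7 matches of the GC box GGGCGG, a motif held by 35.7% of all 32851 promoter windows in the table, whose median GC content was 52.7%. Bcl2l1 had 52.3% GC and 1 match, the ETS motif CCGGAAG beginning at base 35 after the start, a motif held by 8.86% of all windows. A match is a description of letters and not a binding site.

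Bcl2l2 (chr14:54883377-54888234, plus strand, mm10), the gene of BCL-W, was not called changed over time in either genotype, with 55.4 to 66.0 CPM in the 9 original WT libraries. In ATLD it ranged from 42.0 to 60.6 CPM, and only at day 0 did all ATLD libraries (53.2, 45.9 and 42.0) lie below those of WT (64.0, 57.6 and 66.0). That difference was -0.37 ± 0.11 on the log2 scale (edgeR adjusted p = 0.00788). It was not called within the second run alone (-0.34, adjusted p = 0.0988), without a filter on low counts, or without replicate 1 of WT day 0 (-0.34, adjusted p = 0.107). Its exons share 594 bases with the predicted gene Gm20521 on the same strand, which had 0 to 11 counts.

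Mcl1 (chr3:95658788-95663176, plus strand, mm10), whose short-lived product guards luminal cells, ranged from 235 to 324 CPM over the 18 original libraries. No change over time was called for Mcl1, the largest being -0.17 ± 0.12 on the log2 scale from day 14 to day 28 in WT. The call of a difference at day 0 (0.30 ± 0.12, edgeR adjusted p = 0.0486) had overlapping groups, with 293, 268 and 265 CPM in WT and 289.7, 289 and 306 in ATLD. It was lost in 7 of 10 alternatives, within the second run alone among them (0.27), and on leaving out any 1 of the 6 cultures (edgeR adjusted p = 0.0618 to 0.109). The 2 WT day 14 libraries low in GC-rich genes were the highest in Mcl1, with 324 and 316 CPM against 235 in replicate 2. Without the 3 libraries the sign of the WT day 14 change turned from 0.09 ± 0.12 (adjusted p = 0.627) to a called -0.28 (adjusted p = 0.0154). That fit sets a resequenced day 14 library beside original day 0 libraries with no batch term. Replicate 1 of WT day 0 read 293 CPM in its original run and 253 when resequenced.

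Bik (chr15:83526862-83544634, plus strand, mm10), a BH3-only gene whose product sits largely at the endoplasmic reticulum in human cells, had the widest fold range of the 10, from 1.01 to 35.7 CPM. It was at 8.28, 9.18 and 9.74 CPM at WT day 0, 1.01, 3.44 and 1.35 at day 14, and 2.97, 1.64 and 3.04 at day 28. In ATLD it stood at 26.5, 35.7 and 23.4 CPM at day 0, 21.3, 23.3 and 31.9 at day 14, and 28.8, 23.9 and 23.2 at day 28. Each later WT library was below each WT day 0 library, each ATLD library was above all WT libraries, and the ATLD days overlapped. In WT it fell by 2.25 ± 0.34 on the log2 scale by day 14 (edgeR adjusted p = 6.13e-05) and by 1.82 ± 0.33 by day 28 (adjusted p = 0.000476), or 4.75-fold and 3.53-fold. In ATLD the changes were -0.16 ± 0.30 and -0.17 ± 0.30 and were not called. The genotypes differed in the change from day 0 by 2.09 ± 0.45 at day 14 (edgeR adjusted p = 0.00251) and 1.65 ± 0.45 at day 28 (adjusted p = 0.0107).

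ATLD exceeded WT in Bik by 1.26 ± 0.34, 3.28 ± 0.36 and 2.95 ± 0.36 on day 0, day 14 and day 28 in turn (edgeR adjusted p = 0.0042, 2.49e-07 and 1.07e-06), the largest difference of any member at each day. Within the second run alone the differences were 1.30, 3.20 and 3.15. Of these Bik calls the day 0 difference was lost on leaving out 1 culture, replicate 1 of WT day 0 with both of its runs (1.19, adjusted p = 0.0711). The other Bik calls held under each alternative and omission run. Without the 3 libraries low in GC-rich genes the WT change by day 14 was -1.56, with a resequenced library at day 14 and no batch term. Bik moved beside the 7 luminal progenitor markers in WT, where all of them fell by day 14 and by day 28, and all of them were higher in ATLD at each day. Of all genes, 15.1% and 12.4% were called lower in WT by day 14 and by day 28. Between the genotypes 26.1%, 30.1% and 29.3% of all genes were called higher in ATLD at day 0, 14 and 28. Within ATLD by day 28, 4 of the 7 markers were called higher and 1 lower (14.1% and 15.7% of all genes), while Bik was not called. The part of these markers in the result was not tested.

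Bid (chr6:120891930-120916853, minus strand, mm10) encodes the BH3-only protein that caspase 8 cleaves, which links death receptors to mitochondria. Its level was 40.2, 41.5 and 42.8 CPM at WT day 0, 38.8, 48.2 and 38.6 at day 14, and 46.9, 41.9 and 47.8 at day 28. In ATLD it was at 76.5, 84.0 and 73.6 CPM at day 0, 105, 103 and 111 at day 14, and 99.0, 100.6 and 97.7 at day 28. The WT days overlapped, the ATLD day 0 libraries lay below those of the later days, and all ATLD libraries were above all WT libraries. The ATLD rise was 0.45 ± 0.10 by day 14 (edgeR adjusted p = 0.00412) and 0.35 ± 0.10 by day 28 (adjusted p = 0.0117), the second of which was lost without a filter (adjusted p = 0.0761) and with a replicate block (adjusted p = 0.0526). The difference from WT was 0.88 ± 0.10, 1.31 ± 0.10 and 1.11 ± 0.10 on day 0, day 14 and day 28 in turn (edgeR adjusted p = 1.54e-06, 2.87e-09 and 3.02e-08). These 3 calls held under each alternative and omission, with 0.93, 1.33 and 1.19 within the second run alone. The genotypes differed in the change by day 14 by 0.44 ± 0.14 (edgeR adjusted p = 0.0287). That call was lost within the second run alone (0.40, adjusted p = 0.258), without a filter, with a replicate block, and on leaving out any WT day 0 library, replicate 1 or 3 of WT day 14 or of ATLD day 0, or replicate 3 of ATLD day 14 (0.38 to 0.43, adjusted p = 0.0574 to 0.0930). The exons of Bid share 628 bases with Bcl2l13 on the opposite strand, which had 2485 to 4244 counts. The strand setting of the counting is not stated in the labels, so some reads could belong to the other gene.

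Bmf (chr2:118528757-118549687, minus strand, mm10), a BH3-only gene tied to the loss of cell attachment in human mammary cells, was called lower, not higher, where ATLD changed. It was at 19.3, 21.4 and 23.6 CPM at WT day 0, 18.8, 20.7 and 18.6 at day 14, and 21.7, 18.9 and 22.1 at day 28. In ATLD it was at 28.3, 21.4 and 17.7 CPM at day 0, 19.6, 15.1 and 17.5 at day 14, and 10.6, 9.98 and 12.5 at day 28. The WT days and the first 2 ATLD days overlapped, and the ATLD day 28 libraries lay below all others. Bmf in ATLD fell by 1.03 ± 0.16 from day 0 to day 28 (edgeR adjusted p = 8.71e-05) and by 0.66 ± 0.16 from day 14 to day 28 (adjusted p = 0.00737), and both calls held under each alternative and omission. At day 28 it was 1.95-fold lower than in WT (log2 difference -0.96 ± 0.17, edgeR adjusted p = 6.55e-05; -0.83 within the second run alone). The change from day 0 differed between genotypes by -0.99 ± 0.22 (adjusted p = 0.00227), a call lost within the second run alone (-0.93, adjusted p = 0.0687). At day 0 the genotypes differed by 0.01 ± 0.17.

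Bcl2l11 (chr2:128126038-128162547, plus strand, mm10), the gene of BIM, was not called changed over time, with 81.9 to 94.2 CPM in the original WT libraries. ATLD libraries ranged from 60.9 to 86.3 CPM and lay below the original WT libraries of their day at each day. The resequenced WT runs gave 94.6, 87.4 and 85.4 CPM for the 3 days, the last of them below replicate 3 of ATLD day 28 (86.3). The log2 difference was -0.35 ± 0.13, -0.30 ± 0.13 and -0.26 ± 0.13 on day 0, day 14 and day 28 in turn (edgeR adjusted p = 0.0259, 0.052 and 0.0823). The day 0 call was lost within the second run alone (-0.34, adjusted p = 0.164), without a filter, with a replicate block, and without replicate 1 of WT day 0 (-0.32, adjusted p = 0.196) or replicate 2 or 3 of ATLD day 0 (-0.36 and -0.24, adjusted p = 0.0529 and 0.130).

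The windows of Bid, Bmf and Bcl2l11 are shown since Bid and Bmf moved in opposite directions in ATLD, and Bcl2l11 is a known target of FOXO transcription factors. They lie at chr6:120916775-120917074 (minus), chr2:118549637-118549936 (minus) and chr2:128125788-128126087 (plus), and capitals mark motif matches as above.
Bid promoter: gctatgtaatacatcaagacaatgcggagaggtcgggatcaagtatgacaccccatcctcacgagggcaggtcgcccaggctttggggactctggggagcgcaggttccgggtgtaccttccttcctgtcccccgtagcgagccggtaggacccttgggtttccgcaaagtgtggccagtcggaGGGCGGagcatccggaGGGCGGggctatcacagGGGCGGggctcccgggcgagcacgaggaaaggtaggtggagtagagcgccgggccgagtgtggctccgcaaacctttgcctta
Bmf promoter: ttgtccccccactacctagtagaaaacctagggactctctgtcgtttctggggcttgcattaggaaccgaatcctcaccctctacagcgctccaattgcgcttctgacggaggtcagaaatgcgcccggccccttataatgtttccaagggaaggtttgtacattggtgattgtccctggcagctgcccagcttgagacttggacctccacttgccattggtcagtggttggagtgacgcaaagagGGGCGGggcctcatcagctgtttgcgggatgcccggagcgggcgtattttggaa
Bcl2l11 promoter: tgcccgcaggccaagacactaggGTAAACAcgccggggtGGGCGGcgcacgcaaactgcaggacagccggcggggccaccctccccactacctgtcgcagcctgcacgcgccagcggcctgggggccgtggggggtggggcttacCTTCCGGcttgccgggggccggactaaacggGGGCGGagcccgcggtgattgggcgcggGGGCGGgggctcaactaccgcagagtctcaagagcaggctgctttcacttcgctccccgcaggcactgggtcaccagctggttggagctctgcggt
Bid had 3 GC boxes and Bmf 1, beginning at base -4 from the start. Bcl2l11 held the FOXO motif TGTTTAC at -227 (on the reverse strand, as GTAAACA), the ETS motif at -105 and 3 GC boxes, and it was the only one of the 9 windows with the FOXO letters, which 3.65% of all windows held. No window of the 9 held the STAT motif TTCNNNGAA, the AP-1 motif TGANTCA, the hypoxia response motif ACGTG or the interferon response and NF-kB motifs, which 8.3%, 7.81%, 19.6%, 3.44% and 0.411% of all windows held. The remaining windows of the 9 had 4 GC boxes (Bad), 1 GC box (Bcl2l2), 1 ETS match and 1 GC box (Mcl1) and no match (Bak1). These 9 are 1 window per gene, while Bcl2l1 and Bmf have 3 windows each and Bcl2l11 and Bad 2 each. Another Bmf window (chr2:118547550-118547849, minus) held the hypoxia response motif, beginning at base -1 from the start.

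Bad (chr19:6941861-6951899, plus strand, mm10), whose product is inactivated by survival kinases through phosphorylation, differed between sequencing runs of 1 culture. It was at 15.4, 21.9 and 22.1 CPM at WT day 0, 14.5, 34.4 and 14.8 at day 14, and 32.5, 16.2 and 32.4 at day 28, and the resequenced runs of replicate 1 gave 25.0, 37.5 and 38.2. The same WT day 14 culture thus read 14.5 CPM in one run and 37.5 in the other. In ATLD it was at 47.4, 65.8 and 44.3 CPM at day 0, 47.0, 52.6 and 79.0 at day 14, and 65.0, 55.8 and 54.6 at day 28. All ATLD libraries were above all WT libraries. With the batch term the log2 difference was 0.90 ± 0.35, 0.86 ± 0.34 and 0.57 ± 0.34 on day 0, day 14 and day 28 in turn (edgeR adjusted p = 0.0349, 0.0329 and 0.156), and within the second run alone it was 1.12, 0.73 and 0.65. With no batch term the values were 1.40, 1.49 and 1.11. The day 0 call was lost without replicate 1 of WT day 0 (0.59, adjusted p = 0.343), replicate 2 of ATLD day 0 (0.71, adjusted p = 0.126) or with a replicate block (adjusted p = 0.103). The day 14 call was lost without replicate 1 or 3 of WT day 14 (0.86 and 0.76, adjusted p = 0.116 and 0.0521), replicate 3 of ATLD day 14 (0.61, adjusted p = 0.150) or with a replicate block (adjusted p = 0.0967). Over time Bad was not called in either genotype, but without the 3 WT libraries low in GC-rich genes it was higher at WT day 14 by 0.81 (adjusted p = 0.00476) and at day 28 by 0.68 (adjusted p = 0.0179). That day 14 value sets a resequenced library beside original day 0 libraries with no batch term, so sequencing run and day are mixed in it. Bad shares 524 exon bases with Gpr137 on the opposite strand, which had 472 to 1368 counts.

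Bak1 (chr17:27019810-27029009, minus strand, mm10) encodes BAK, the effector of the list that opens the mitochondrial membrane. It was at 41.6, 44.4 and 47.0 CPM at WT day 0, 35.1, 61.4 and 35.3 at day 14, and 52.9, 39.2 and 57.1 at day 28, with 62.0, 68.9 and 68.6 in the resequenced runs. In ATLD it was at 101, 103 and 110.1 CPM at day 0, 105, 116 and 119 at day 14, and 113, 98.8 and 94.7 at day 28. The ATLD days overlapped, and each ATLD library was above each WT library. ATLD exceeded WT by 0.72 ± 0.19, 0.80 ± 0.19 and 0.52 ± 0.19 on day 0, day 14 and day 28 in turn (edgeR adjusted p = 0.0039, 0.00117 and 0.0232), while within the second run alone it was 0.80, 0.79 and 0.61 and with no batch term 1.24, 1.36 and 1.04. The day 0 call was lost without replicate 1 of WT day 0 (0.64, adjusted p = 0.0767). The day 28 call was lost without replicate 1 of WT day 28 (0.52, adjusted p = 0.122), replicate 1 of ATLD day 28 (0.44, adjusted p = 0.0771) or with a replicate block (adjusted p = 0.0672). Over time in WT the changes were -0.01 ± 0.18 and 0.17 ± 0.18. Without the 3 libraries low in GC-rich genes they were a called 0.51 by day 14 (adjusted p = 0.000578) and 0.28 by day 28 (adjusted p = 0.0401), and the genotype by time value at day 14 turned from 0.13 ± 0.25 to a called -0.37 (adjusted p = 0.0429). Both day 14 values set a resequenced library beside original WT day 0 libraries with no batch term, so sequencing run and day are mixed in them.

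**Figure D5:**
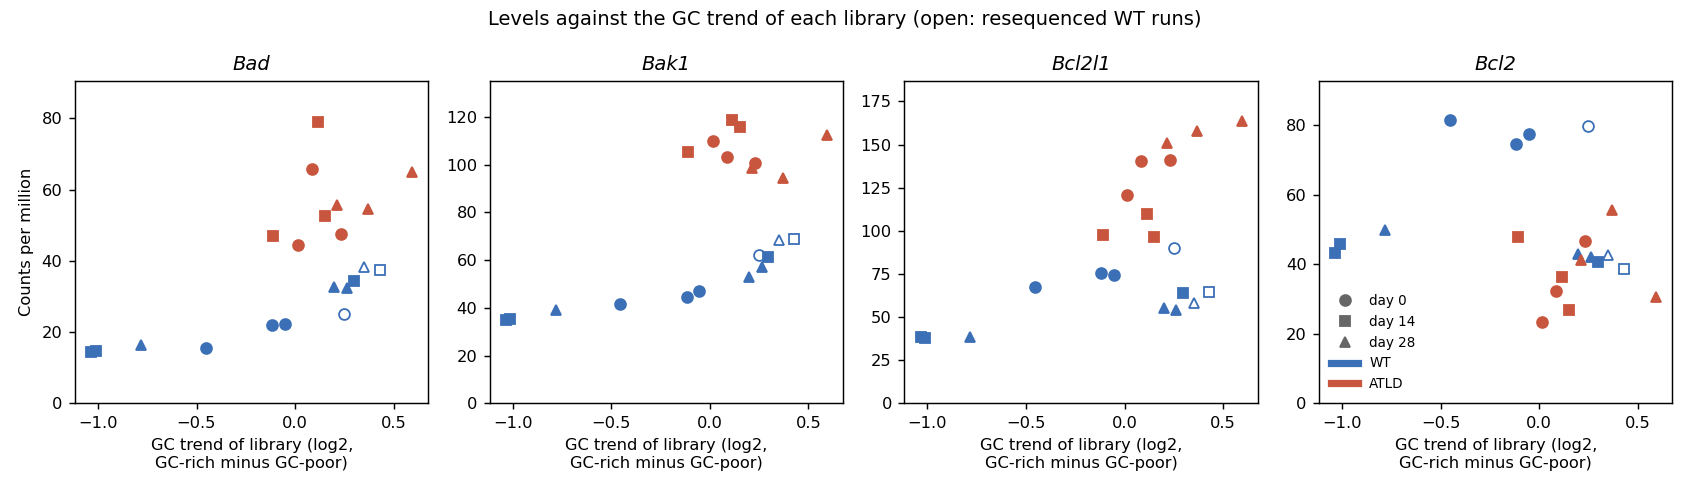
CPM (y axis) of Bad, Bak1, Bcl2l1 and Bcl2 against the GC trend of each library (x axis, log2 difference between genes of 57.5% and 40.9% GC), WT in blue, ATLD in red, shapes for days and open symbols for resequenced runs. The 3 WT libraries at -1.03, -1.01 and -0.78 hold Bad levels of 14.5 to 16.2 CPM and Bcl2l1 levels of 37.7 to 38.5 CPM.

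Of 15 other genes of the family, 13 could be tested. Genes named from this list are limited to a mean log2 CPM of at least 1. In WT by day 14, 5 rose and 3 fell (median 0.14 on the log2 scale against 0.01 over all genes, of which 30.3% were called), with Bnip3, a mitochondrial receptor for mitophagy, with 3.53 ± 0.22 and Pmaip1, the gene of NOXA, which binds MCL1, with 2.69 ± 0.16 on the log2 scale (edgeR adjusted p = 1.39e-09 and 9.26e-10). Pmaip1 went from 3.47 ± 0.59 to 22.3 ± 2.29 CPM in WT, and from 5.71 ± 0.21 to 6.44 ± 0.84 CPM in ATLD over the same 14 days. By day 28, 6 of the 13 were higher and 1 lower in WT (24.7% of all genes called). In ATLD by day 28 all 7 called genes were lower (median -0.37 against -0.02 over all genes, 29.8% of which were called), among them Bok, a BAX-like protein, with -2.24 ± 0.23 (adjusted p = 1.13e-06), and Pmaip1 with -1.03 ± 0.16 (adjusted p = 0.000113). ATLD exceeded WT at day 0 in 10 of the 13 (median 0.83 against -0.04, with 55.6% of all genes called and 26.1% higher), among them Bax, the other effector beside BAK, with 1.06 ± 0.33 (adjusted p = 0.011), and Pmaip1 with 1.02 ± 0.17. Bax was higher in ATLD at day 14 with 1.58 ± 0.33 and at day 28 with 1.37 ± 0.33 as well, whereas Pmaip1 was lower at day 28 with -2.26 ± 0.16. Bax was at 17.1, 42.1 and 16.5 CPM at WT day 14 and 38.4, 19.5 and 41.2 at WT day 28, lowest in the 3 libraries low in GC-rich genes. The resequenced runs of these days gave 37.2 and 38.9 CPM, and no ATLD library was below 83.25. The change from day 0 to day 28 differed between genotypes for 6 of the 13, all lower in ATLD (median -1.18 against -0.05, 27.5% of all genes called), among them Pmaip1 with -3.27 ± 0.23 and Bok with -2.91 ± 0.31. The Bcl2a1 genes among the 13 are near-identical copies at low counts, so their values are uncertain, though some of them and Bcl2l15 had larger fitted changes than the genes named.

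The genes downstream of the mitochondrion were read in the same comparisons. In these, 55.6%, 65.1% and 64.2% of all genes were called between ATLD and WT at day 0, 14 and 28 (26.1%, 30.1% and 29.3% higher, 29.5%, 35% and 34.9% lower). The median log2 difference over all genes was -0.04, -0.07 and -0.05. Of 11 genes of the apoptosome and caspases, 7 were higher and 0 lower in ATLD at day 0 (median 0.39), among them Cycs, the gene of cytochrome c, with 1.36 ± 0.14 (edgeR adjusted p = 3.82e-07). At day 28, 2 were higher and 3 lower (median 0.06), a share below that of all genes, among them Apaf1, the scaffold of the apoptosome, with -1.04 ± 0.16 (adjusted p = 1.47e-05). Of 8 mitochondrial partners of BAK and BAX, 7, 6 and 5 were higher in ATLD at day 0, 14 and 28 (medians 1.03, 0.77 and 0.67), for example Vdac2, an outer membrane channel that binds BAK, with 1.003 ± 0.14 at day 14 and 0.94 ± 0.14 at day 28. Of 5 tested genes that control MCL1 turnover, 2, 2 and 3 were lower and 0 higher in ATLD at the 3 days (medians -0.49, -0.44 and -0.72), shares below or near those of all genes called, for example Huwe1, a ubiquitin ligase for MCL1, with -1.40 ± 0.20 at day 28 (adjusted p = 7.29e-06). Mcl1 itself was at 0.26 ± 0.12 there and not called. Of 6 partners and transcription factors of BIM and BMF, 3 were higher and 2 lower at day 28 (median 0.26). Foxo1, an activator of the BIM gene, was lower in ATLD by 1.23 ± 0.16 at day 0, 1.57 ± 0.17 at day 14 and 1.42 ± 0.17 at day 28 on the log2 scale, and Dynll2, the dynein light chain that holds BMF, was higher with 1.09 ± 0.08 at day 28. Of 10 inhibitors of apoptosis and their antagonists, 4 were higher and 2 lower in ATLD at day 0 and 1 higher and 4 lower at day 28 (medians 0.04 and -0.20), shares near or below those of all genes, with Birc6, a large ubiquitin ligase that blocks caspases, at -1.49 ± 0.21 at day 28.

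For each member the genes most like it were sought by Pearson's r of log2 CPM over the 18 original libraries, which share genotype, run and GC trend, so r is a description. Bik was most like Cldn7 (r = 0.993), Krt7 (0.990) and Trim46 (0.990), of which Cldn7 is a claudin of epithelial junctions and Krt7 a keratin of luminal cells. Bcl2 was most like Srgap3 (r = 0.947), Trps1 (0.946) and D5Ertd579e (0.945), and Bcl2l1 most like Rab11fip5 (0.989), Prkcz (0.983) and Pacs1 (0.981). Bcl2l11 was most like Cflar (r = 0.966), which encodes an inhibitor of caspase 8, and Bmf most like Ttl (0.944). Bid was most like Npc2 (r = 0.987), Mcl1 most like Yes1 (0.927) and Bcl2l2 most like Fam160a1 (0.950). Bad with Atox1 (r = 0.994) and Bak1 with Fam83a (0.992) had the closest match of the 10 together with Bik.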

How the data were processed

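The authors deposited raw counts per gene for 21 polyA RNA-seq libraries, made with the TruSeq Stranded mRNA kit per the labels' protocols, in 1 table that also gives gene length. The submitters' processing notes name featureCounts, DESeq2 and the mm10 genome; for the aligner, the annotation release and the strand setting, nothing is given in the sources used here. From these deposited counts, edgeR 4.0.16 (R 4.3.3) with TMM scaling and a quasi-likelihood F test was fitted to all genes past filterByExpr (minimum count 10, minimum total 15), with Benjamini-Hochberg adjustment over all genes and calls under 0.05. Time comparisons and genotype by time used the 18 original libraries, and ATLD against WT used all 21 with a batch term for the sequencing run. A resequenced run is no independent culture. The fit of 21 libraries had no culture term, so its p-values count both runs of a WT replicate 1 as separate libraries. Total counts ran from 30905703 to 51757203 per library. The scripts were tested on simulated data. Fold changes use a prior count of 0.125, and correlations use log2 CPM with a prior count of 2.

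Named genes are the 10 members, Mre11a and Erbb2 as checks, up to 2 called rises and 2 called falls per list whose mean log2 CPM reached 1, and the 3 genes most like each member. Some genes that this rule names are not reported here. The members and lists were chosen with earlier results of these data known. Alternatives were DESeq2 1.42.0, size factors by median of ratios, dropping the filter, a replicate block, an offset for GC content (spline with 5 degrees of freedom), both together, the compared groups alone, the batch term in or out, resequenced runs in place of originals, the second run alone, limma 3.58.1 (voom with culture as random block) and each library left out in turn. In ATLD against WT, leaving out replicate 1 of a WT day dropped both its original and its resequenced run. Leaving out the 3 WT libraries low in GC-rich genes was added after seeing the data. WT day 14 then holds replicate 2 and the resequenced run of replicate 1. Time and genotype by time had no batch term in that fit, so its day 14 values mix sequencing run and day.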

Additional observations from a re-analysis of the deposited data

Results flagged for a closer look

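The change from day 0 differed between ATLD and WT, by an interaction test in edgeR over 18 libraries, for the following members, each value being the ATLD change minus the WT change on the log2 scale. At day 14 the difference was 2.09 for Bik and 0.44 for Bid. At day 28 it was 1.65 for Bik, 1.11 for Bcl2, 0.79 for Bcl2l1 and -0.99 for Bmf. For Bik, Bcl2 and Bcl2l1 the WT libraries fell, for Bid the ATLD libraries rose, and for Bmf the ATLD libraries fell.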

How the results depend on the processing

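Of the 10 members, the called count by day 14 in ATLD was 2 with a GC offset, with a GC offset and replicate block, and with the compared groups alone, against 1. In ATLD by day 28 it was 1 with no filter, against 2. ATLD against WT at day 28 gave 8 with a GC offset, against 5. Genotype by time gave 1 at day 14 and 2 at day 28 within the second run alone, against 2 and 4. Without the 3 WT libraries low in GC-rich genes, an alternative chosen after seeing the data, the counts were 5 for WT by day 14, 5 for WT by day 28 and 4 for genotype by time at day 14, and the sign turned for Mcl1 (-0.28) and Bak1 (0.51) in WT by day 14 and for Bak1 in genotype by time at day 14 (-0.37). The day 14 values of this alternative mix sequencing run and day, and the cause was not tested. With each library left out in turn (in ATLD against WT, both runs of a WT replicate 1 together) the counts ranged from 2 to 3 (WT by day 14), 1 to 2 (WT by day 28), 0 to 4 (WT day 28 against day 14), 1 to 2 and 2 to 3 (ATLD by day 14 and by day 28), 1 to 2 (ATLD day 28 against day 14), 2 to 8, 4 to 6 and 4 to 6 (ATLD against WT at the 3 days), and 1 to 3 and 2 to 4 (genotype by time). Of 1820 values under alternatives, 105 that were not called changed sign. With no filter, the share of all genes called was 15% and 12.3% in WT by day 14 and day 28, 5.36%, 14.1% and 7.85% in the ATLD time comparisons, 28.4%, 35% and 34.6% in ATLD against WT, and 10.2% and 13.3% in genotype by time, since more genes were tested. It was 18.9% (ATLD by day 14) and 26.8% (ATLD day 28 against day 14) with a GC offset, and 11.7% and 16.1% for genotype by time within the second run alone. For WT day 28 against day 14 it ran from 0% with the compared groups alone to 1.88% with all 21 libraries and a batch term. Depth limits Bik most, at 1.01 CPM in its lowest library.

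With a replicate block, the called count was 1 in ATLD by day 28, 1 in ATLD day 28 against day 14 and 1 in genotype by time at day 14, and 10.6% of all genes were called in ATLD day 28 against day 14. Same-numbered libraries of a genotype had correlations of deviations from -0.956 to 0.796, over 0.1 in 4 of 18 pairs. Those with different numbers ran from -0.859 to 0.924, over 0.1 in 20 of 36 pairs. The deviations still hold the GC trend of each library, so they cannot decide whether same-numbered libraries share an animal or culture.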
